A study of Homo sapiens with 7 samples.

Results

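The genes that encode the proteins of the cytosolic ribosome were followed in UM-UC-3, an established human line from a urothelial carcinoma of the bladder. Members were taken by symbol alone: RPL or RPS with a number and no pseudogene mark, plus RPLP0, RPLP1, RPLP2 and RPSA, with kinases of the RPS6K kind left out. This gave 79 of the 13872 listed rows, 47 for the large and 32 for the small ribosomal subunit. They stand for 78 genes, because RPL26 is listed under 2 Ensembl identifiers with nearly the same values. Expression was measured by sequencing total RNA of 7 cultures: 3 ALDH-high clones (numbers 1, 6 and 10), 3 ALDH-low clones (numbers 1, 3 and 8) and 1 wild-type culture, the control. Clones were sorted with the ALDEFLUOR assay, which marks live cells by aldehyde dehydrogenase activity. The submitters use ALDH-high clones as cancer stem-like cells and ALDH-low clones as their non-stem-like counterpart, and the labels give DMEM with 10% serum as the medium. No group carries an engineered allele or a drug treatment in the labels. Each clone gave 1 library, all clones come from 1 line, and wild type has no replicate, so p-values measure the spread between clones of 1 line.

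A ribosome joins a small subunit, which reads the messenger RNA, to a large subunit, which forms the peptide bond. Cells make its proteins in nearly equal numbers, a single copy of each per ribosome apart from the stalk proteins, and they spend a large part of their messenger RNA on them in rapid growth. Most of these messenger RNAs begin with a cytosine followed by a run of pyrimidines, the terminal oligopyrimidine (TOP) motif, through which the kinase mTOR and the binding protein LARP1 set their translation and stability. Free RPL5 and RPL11 also bind MDM2, the ubiquitin ligase that holds p53 down, and loss-of-function variants in many of these genes cause Diamond-Blackfan anaemia.

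A single short form of such a run, CTTT, was searched at the transcript starts. In RefSeq promoter windows (GRCh38.p14), 63 of the 78 symbols were matched, with 78 annotated starts between them. The letters CTTT lay on the sense strand, all 4 of them within 5 bases before to 7 bases after the start, at 37 of the 78 starts (47.4%), against 5.79% of the starts of all listed genes and 5.52% of all RefSeq starts. On the other strand (AAAG) the shares were 1.28% of member starts, 2.14% of listed genes' starts and 3.12% of all starts. CTTT is not the TOP motif itself, and a pyrimidine run with other letters, such as the cttctc at the RPL14 start, is not counted. The windows shown here run from 30 bases before to 20 bases after a start, 5′ to 3′, and capitals mark a CTTT that lies whole within the 5 bases before to 7 bases after. They are given for 6 of the 9 members whose clone groups did not overlap (as in 26.1% of all genes tested), those with a single annotated start, RPL14 (chr3:40457309-40457358, plus strand), RPL29 (chr3:51995876-51995925, minus strand), RPS3 (chr11:75399488-75399537, plus strand), RPS26 (chr12:56041888-56041937, plus strand), RPS25 (chr11:119018324-119018373, minus strand) and RPS27L (chr15:63157458-63157507, minus strand). Also given are RPL35 (chr9:124861938-124861987, minus strand), whose groups overlapped, RPS6 (chr9:19380217-19380266, minus strand), which was high in 2 libraries, and RPLP1 (chr15:69452788-69452837, plus strand) and RPS23 (chr5:82278335-82278384, minus strand), among the rows of highest CPM.
RPL14: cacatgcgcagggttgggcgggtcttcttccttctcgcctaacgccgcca
RPL29: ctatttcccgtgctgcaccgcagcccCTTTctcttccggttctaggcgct
RPS3: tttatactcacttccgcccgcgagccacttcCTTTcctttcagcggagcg
RPS26: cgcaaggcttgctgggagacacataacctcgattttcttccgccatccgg
RPS25: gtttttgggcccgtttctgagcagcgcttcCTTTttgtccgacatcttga
RPS27L: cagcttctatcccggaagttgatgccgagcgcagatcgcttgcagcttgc
RPL35: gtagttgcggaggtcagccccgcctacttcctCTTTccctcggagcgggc
RPS6: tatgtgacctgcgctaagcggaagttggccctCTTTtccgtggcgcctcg
RPLP1: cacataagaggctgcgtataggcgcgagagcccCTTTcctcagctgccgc
RPS23: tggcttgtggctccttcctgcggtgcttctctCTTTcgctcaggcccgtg
RPL14, RPS26 and RPS27L have no CTTT in the counted range, and the other windows have one. Among the 53 members with a single annotated start, the 30 with CTTT had a median difference between ALDH-high and ALDH-low clones of 0.05 on the log2 scale, and the 23 without it had 0.09. The median distance of wild type from the mean of the 6 clones was 0.43 and 0.42 in those same sets. No test was made of these medians.

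Values are CPM, counts scaled by library size, which are not divided by transcript length, so levels are compared between libraries and not between genes. Differences are means of log2(CPM + 1), ALDH-high minus ALDH-low, unless wild type is named. The columns sum to between 967085 and 1019860 CPM over listed genes. Clone 10 of the ALDH-high group was scaled with the same library size as ALDH-low clones 1 and 8, 25000000 reads to the precision of the file, while the other 4 libraries each had their own, so values within these sets are given where they bear on a result. The sort label held in every clone: ALDH1A1 and GRIK2 together reached 44.4 to 116 CPM over ALDH-high clones, against 0 to 0.120 CPM over ALDH-low clones, with 53.6 CPM in wild type. Of the urothelial markers looked for, 5 of 11 luminal ones (KRT7, KRT8, KRT18, FOXA1 and PPARG) and 2 of 6 basal ones (CD44 and EGFR) were listed, and none of 12 fibroblast, blood and endothelial markers. Summed luminal markers were 499.7 to 739.99 CPM over ALDH-high clones, against 243 to 519.7 CPM over ALDH-low clones, with 755 CPM in wild type, and summed basal markers were 201 to 519.6 CPM over ALDH-high clones, against 579 to 682 CPM over ALDH-low clones, with 468 CPM in wild type. KRT18 and KRT8 made up most of the luminal sum, and each overlapped between the groups. KRT7 ran the other way, at 1.48 to 2.83 CPM over ALDH-high clones against 3.22 to 6.68 CPM over ALDH-low clones. PPARG (0.48 to 1.31 against 0.24 to 7.94 CPM) and FOXA1 (0.48 to 0.68 against 0.40 to 0.64 CPM) overlapped. The luminal sum is thus no measure of a luminal state. CD44 made up most of the basal sum, at 192 to 493 CPM over ALDH-high clones against 541 to 637 CPM over ALDH-low clones. EGFR had 8.62 to 26.8 against 33.5 to 44.3 CPM. The other basal markers looked for, KRT5, KRT14, KRT6A and CDH3, were not listed, so the basal sum is no measure of a basal state either. The part of these markers in the results was not tested. In bulk libraries, fewer cells that express a gene and less RNA of it per cell cannot be told apart.

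The summed level of the ribosomal protein genes overlapped between ALDH-high and ALDH-low clones, and 2 libraries stood apart. Their summed CPM was 138580, 100365 and 105124 in ALDH-high clones 1, 6 and 10, against 111238, 110549 and 100271 in ALDH-low clones 1, 3 and 8, and 156309 in wild type, with RPL26 counted once. ALDH-high clone 1 and wild type were the highest libraries, and the other 5 lay within 100271 to 111238 CPM. As a share of all listed CPM this was 13.6, 10.1 and 10.7% (ALDH-high clones) against 11.1, 11.2 and 10.4% (ALDH-low clones), with 15.5% in wild type. The groups averaged 114689 ± 20826 CPM over ALDH-high clones, against 107353 ± 6143 CPM over ALDH-low clones (SD, n = 3 each), a ratio of 1.07, and without ALDH-high clone 1 the ratio was 0.957. The difference was smaller than the spread between ALDH-high clones, and its direction rested on clone 1.

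**Figure D1:**
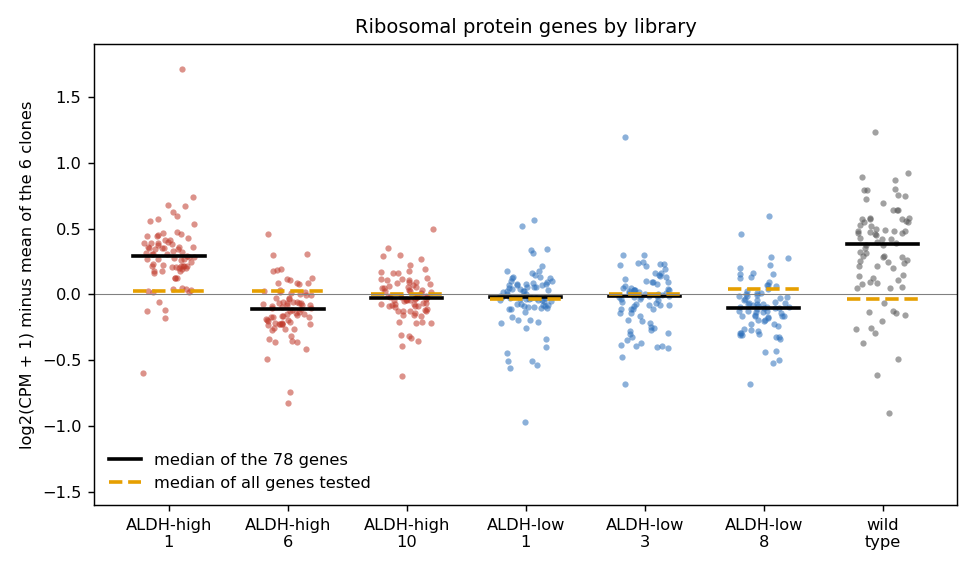
Each point is 1 of 78 ribosomal protein genes in 1 library, as log2(CPM + 1) minus the mean of the 6 clones. Black lines are medians over the genes and dashed lines medians over all genes tested. The black lines lie at 0.29 in ALDH-high clone 1 and 0.38 in wild type and between -0.11 and -0.02 in the other 5 libraries.

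The same 2 libraries stood apart gene by gene. The median deviation of the 78 genes from their clone mean was 0.29, -0.11 and -0.02 in ALDH-high clones 1, 6 and 10, against -0.02, -0.02 and -0.10 in ALDH-low clones 1, 3 and 8, and 0.38 in wild type, while over all genes tested these medians stayed between -0.04 and 0.04. In ALDH-high clone 1, 73 of the 78 genes lay above their clone mean. Clone 1 was the highest of the 6 clones in 62 of the 79 rows (78.5%), against 23.5% of all 12705 genes tested. ALDH-high clone 6 was the highest in 1 row (15.3% of all genes) and the lowest in 25 rows (31.6%, against 11.6% of all genes). Large and small subunit genes moved together from library to library: the ratio of their sums was 1.17, 1.19 and 1.18 (ALDH-high clones) against 1.14, 1.13 and 1.19 (ALDH-low clones), with 1.20 in wild type. Across the 6 clones the median SD of a member was 0.22 on the log2 scale, against 0.30 over all genes tested. No genes of similar CPM were set beside the members, so this cannot be read as a trait of the family.

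Between ALDH-high and ALDH-low clones, no ribosomal protein gene passed the test. All 79 rows passed the filter of 1 CPM in at least 3 clones, and 0 of 79 had an adjusted p under 0.05 (limma with Benjamini-Hochberg adjustment over 12705 genes, two-sided), against a background of 1.34% of genes called, 0.645% higher and 0.693% lower in ALDH-high clones. At an unadjusted p under 0.05 there were 7 members, 6 higher and 1 lower in ALDH-high clones, which is 8.86% of the rows against 19.7% of all genes. The values of the groups did not overlap in 9 members (11.4%), 8 higher and 1 lower in ALDH-high clones, against 26.1% of all genes, 14.0% higher and 12.1% lower. By both counts the members stood below the background. Differences were positive in 54 rows and negative in 25, with a median of 0.07 (all genes tested 0.004) and a range of -0.57 to 0.82, and 59 rows lay within 0.25 of 0. The median was 0.09 over large subunit rows and 0.04 over small subunit rows.

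The median changed sign with the libraries used. Without ALDH-high clone 1 it was -0.05, and with libraries weighted by their consistency, where clone 1 received a weight of 0.40, it was -0.02. Within the 3 libraries that share a scaling size it was 0.01, and over the other clones 0.10. The same weights gave the only calls among members in any setting, 3 of them: RPL14 (adjusted p = 0.0232), RPL29 (adjusted p = 0.0361) and RPS27L (adjusted p = 0.0493), in a fit by limma that called 700 genes in all (5.51%). The largest ratio between group means was 1.76, below the 2-fold change, of which limma found 36% in simulated data with 3 clones a group. Those changes were set in genes drawn from all 12705 tested. Members had a smaller median SE (0.183, against 0.217 over all genes tested), so the 36% does not describe the members themselves.

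**Figure D2:**
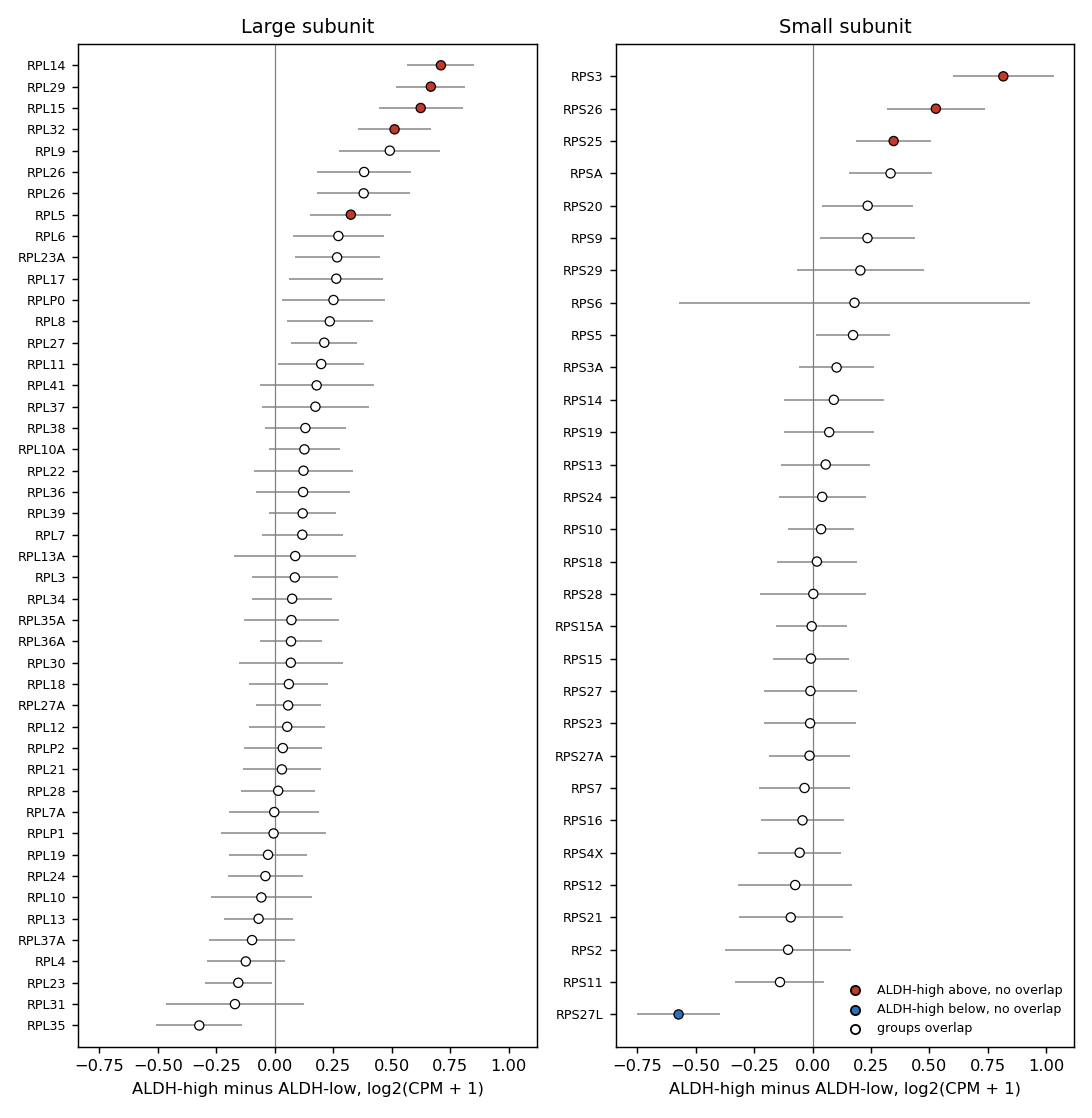
Each circle is the log2(CPM + 1) difference of 1 of 76 ribosomal protein rows, ALDH-high minus ALDH-low, with its standard error (3 clones a group), large subunit left and small subunit right; the 2 rows of RPL26 are both drawn. Filled circles mark the 9 members whose groups do not overlap, from RPS3 at 0.82 to RPS27L at -0.57.

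The 4 large subunit genes with the largest differences all lie on chromosome 3. RPL14, a protein on the solvent side of the large subunit, had 199.6, 203 and 233 CPM (ALDH-high clones) against 116, 128 and 144 CPM (ALDH-low clones), with 138 CPM in wild type, with clones in the order 1, 6, 10 and 1, 3, 8 here and in all later values. Every ALDH-high clone was above every ALDH-low clone, and wild type lay among the ALDH-low clones. RPL14 averaged 212 ± 18.3 CPM over ALDH-high clones, against 129 ± 14.0 CPM over ALDH-low clones (SD, n = 3 each), and the difference was 0.71 (SE 0.143, adjusted p = 0.0603). RPL29, a small basic protein of the large subunit that also binds heparin, had 211, 204 and 211 CPM (ALDH-high clones) against 116, 125 and 155 CPM (ALDH-low clones), with 152 CPM in wild type. Its 3 ALDH-high values were nearly the same, again with no overlap, and wild type was again among the ALDH-low clones. The difference of RPL29 was 0.67 (SE 0.148, adjusted p = 0.0744).

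RPL15, a large subunit protein whose loss can cause Diamond-Blackfan anaemia, had 2464, 1808 and 1734 CPM (ALDH-high clones) against 1261, 1299 and 1289 CPM (ALDH-low clones), with 2757 CPM in wild type. The ALDH-low clones were close to each other, and here wild type was above all clones. Its difference was 0.62 (SE 0.180, adjusted p = 0.123), and 0.46 without ALDH-high clone 1. RPL32, a large subunit protein, had 337, 285 and 321 CPM (ALDH-high clones) against 193, 257 and 214 CPM (ALDH-low clones), with 218 CPM in wild type, a difference of 0.51 (SE 0.155, adjusted p = 0.135), without overlap. RPSA, a small subunit protein also known as a laminin receptor precursor, is the fifth member in this stretch and had 399.9, 263 and 326 CPM (ALDH-high clones) against 251, 242 and 281 CPM (ALDH-low clones), with 333 CPM in wild type. Its groups overlapped, and its difference was 0.33 (SE 0.178, adjusted p = 0.345). The last 2 members on chromosome 3, RPL24 and RPL35A, differed by -0.04 and 0.07.

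These 2 sets lie on either side of the widest gap between listed genes on chromosome 3. On the first side, 322 genes were tested, 82.6% of them were higher in ALDH-high clones, and their median difference was 0.38, beside 0.62 for RPL32, RPL15, RPSA, RPL14 and RPL29. On the second side, 371 genes had a median of -0.04, and 43.7% were higher. The median of the first side held within the libraries of shared scaling size (0.41) and over the others (0.38). By library, the 322 genes deviated from their clone mean by 0.25, 0.19 and 0.20 (ALDH-high clones) against -0.27, -0.18 and -0.13 (ALDH-low clones), with 0.17 in wild type. The difference on the first side was thus shared by most genes there and was not a property of its ribosomal protein genes alone.

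**Figure D3:**
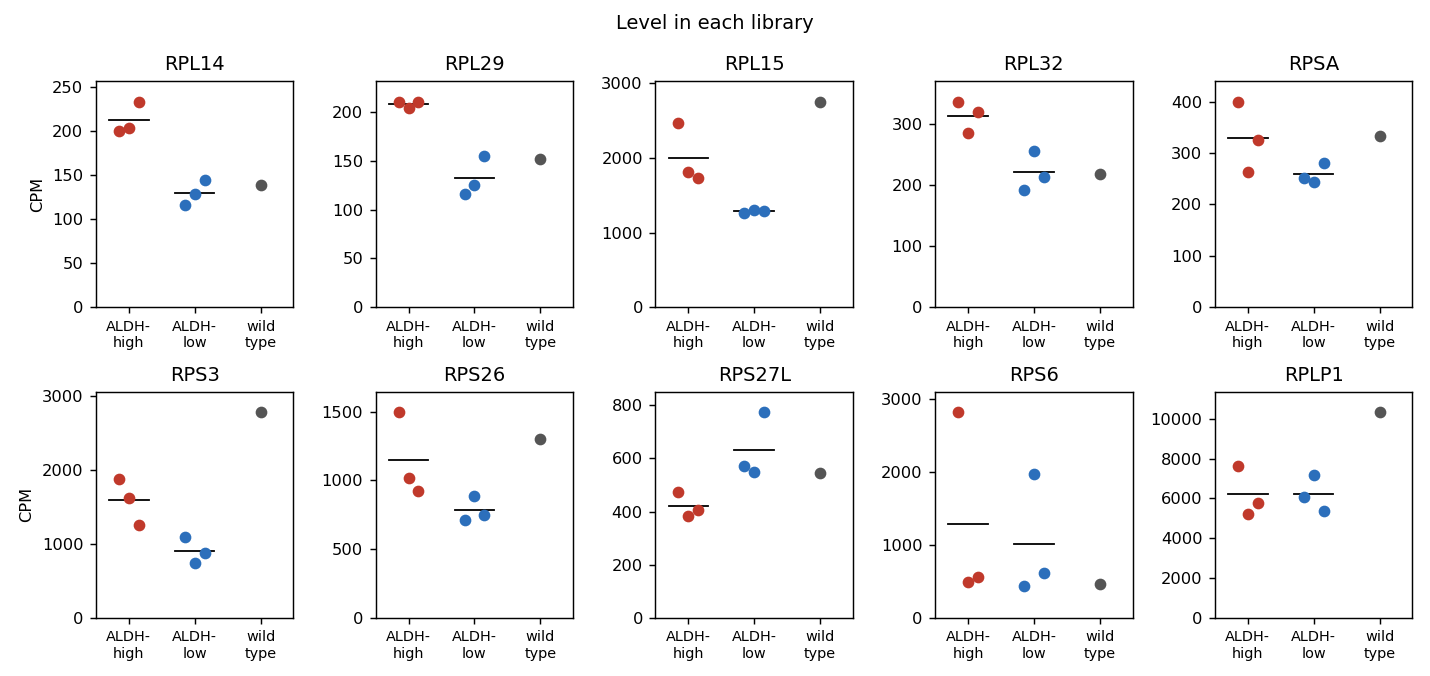
CPM of 10 ribosomal protein genes in each library, each panel from 0 on its own scale; points are libraries and lines are group means. ALDH-high points lie above ALDH-low points for RPL14, RPL29, RPL15, RPL32, RPS3 and RPS26, and below them for RPS27L; RPS6 is high in 1 clone of each group.

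Across the whole family, the members' differences ran with those of the genes around them. For 77 members with a position in GENCODE release 29, the difference was set beside the median difference of their 50 nearest tested neighbours, 25 on each side. The correlation was 0.67 (Pearson) and 0.62 (Spearman) over these 77 genes, which share the 6 libraries and in part their neighbours, and is given as a description. The same correlation over all genes tested was not computed, so it is not shown to be particular to the family. The signs agreed in 50 of 77, and 54 members were above the median of their neighbours, by 0.12 in the median. RPS3 on chromosome 11 had neighbours at 0.49, RPL5 on chromosome 1 at 0.39 against its own 0.33, RPL9 on chromosome 4 at 0.37 and RPL29 at 0.40. RPS27L on chromosome 15 had neighbours at -0.30. With the neighbours subtracted in each library, RPL14 differed by 0.40 (adjusted p = 0.247), RPL29 by 0.27 (adjusted p = 0.516), RPL32 by 0.24 (adjusted p = 0.535), RPS3 by 0.33 (adjusted p = 0.499) and RPS27L by -0.27 (adjusted p = 0.523), by limma.

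**Figure D4:**
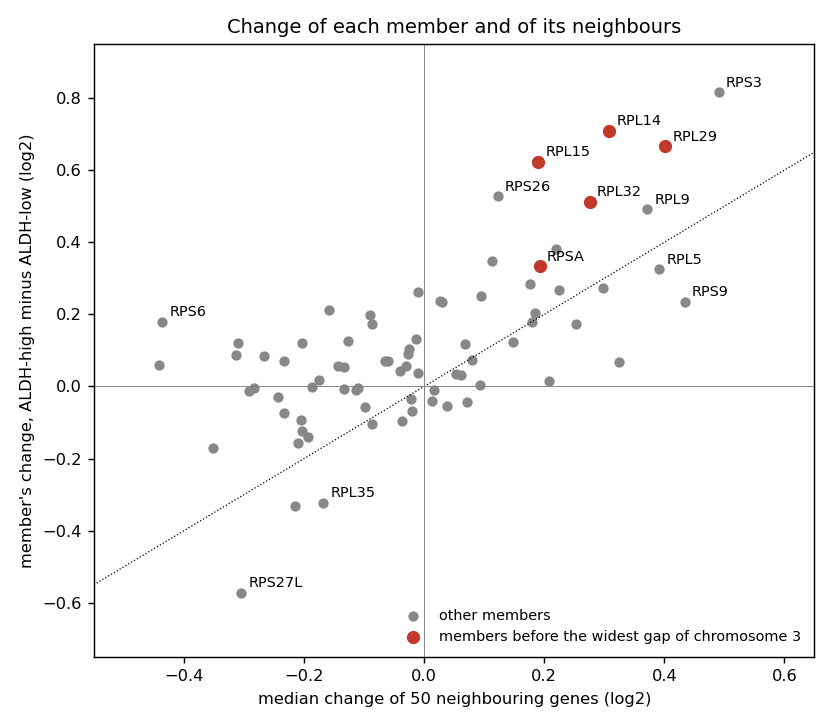
Difference of each of 77 ribosomal protein genes (log2(CPM + 1), ALDH-high minus ALDH-low) against the median difference of its 50 neighbouring genes; the line marks equal values. Higher values on one axis go with higher values on the other (Pearson 0.67), and the 5 genes on the first side of chromosome 3 lie above 0 on both axes.

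Among small subunit genes, RPS3 had the largest difference. RPS3, which lines the mRNA entry channel and also acts in DNA repair, had 1873, 1623 and 1257 CPM (ALDH-high clones) against 1096, 734 and 870.2 CPM (ALDH-low clones), with 2777 CPM in wild type. The groups did not overlap, but the range within each was wide, and wild type exceeded every clone. RPS3 averaged 1584 ± 309.6 CPM over ALDH-high clones, against 900.1 ± 183 CPM over ALDH-low clones (SD, n = 3 each), a difference of 0.82 (SE 0.215, adjusted p = 0.106), which was 0.36 within the libraries of shared scaling size and 1.25 over the others. Nearly the same values, 1866, 1616 and 1248 CPM in ALDH-high clones but 1088, 731 and 865 CPM in ALDH-low clones, are listed for SNORD15A, a snoRNA gene inside RPS3, so the source of these reads cannot be told apart.

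RPS26, which contacts the mRNA at the exit side and is mutated in Diamond-Blackfan anaemia, had 1496, 1021 and 923 CPM (ALDH-high clones) against 709, 889 and 746 CPM (ALDH-low clones), with 1301 CPM in wild type. ALDH-high clones were above ALDH-low clones by a narrow margin between clones 10 and 3, and the difference was 0.53 (SE 0.211, adjusted p = 0.220), which was 0.32 without ALDH-high clone 1. RPS25, a head protein of the small subunit that several viral internal ribosome entry sites require, had 739, 699 and 652 CPM (ALDH-high clones) against 587, 608 and 459 CPM (ALDH-low clones), with 865 CPM in wild type, a difference of 0.35 (SE 0.159, adjusted p = 0.278), again without overlap. RPL9, a large subunit protein near the factor-binding site, had 312, 252 and 287 CPM (ALDH-high clones) against 161, 180.2 and 278 CPM (ALDH-low clones), with 262 CPM in wild type. ALDH-low clone 8 reached the ALDH-high clones, so the groups overlapped at a difference of 0.49 (SE 0.216, adjusted p = 0.261).

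RPS27L was the one member that lay lower in ALDH-high clones without overlap. RPS27L, a close copy of RPS27 whose gene is a known p53 target, had 472, 383 and 407 CPM (ALDH-high clones) against 573, 547 and 774 CPM (ALDH-low clones), with 546 CPM in wild type. ALDH-low clone 8 was the highest library, and wild type stood between the groups. It averaged 421 ± 46.1 CPM over ALDH-high clones, against 632 ± 124 CPM over ALDH-low clones (SD, n = 3 each), a difference of -0.57 (SE 0.178, adjusted p = 0.142), which was -0.42 without ALDH-low clone 8 and -0.66 without ALDH-high clone 1. LACTB, a gene on the opposite strand that overlaps it, had 23.2, 24.9 and 28.8 CPM (ALDH-high clones) against 63.0, 41.9 and 68.2 CPM (ALDH-low clones), with 47.6 CPM in wild type, a difference of -1.11 (SE 0.210, adjusted p = 0.0514). LACTB passed with robust estimation (adjusted p = 0.0460), with library weights (adjusted p = 0.0180) and without ALDH-low clone 3 (-1.33, adjusted p = 0.0242), by limma, and with neighbours subtracted it differed by -0.81 (adjusted p = 0.211). MDM2, another p53 target, had 108, 91.2 and 82.1 CPM (ALDH-high clones) against 70.5, 53.5 and 60.7 CPM (ALDH-low clones), with 78.8 CPM in wild type, a difference of 0.60 (SE 0.167, adjusted p = 0.114). MDM2 was thus higher and RPS27L lower in ALDH-high clones, and neither passed the test. Each difference had the sign of the median of its chromosome, a relation that was not tested. The median was 0.27 over 680 tested genes of chromosome 12, where MDM2 lies, and -0.27 over 378 of chromosome 15. RPL35, a protein at the exit of the peptide tunnel, had 1589, 1913 and 1377 CPM (ALDH-high clones) against 2239.8, 2018 and 1812 CPM (ALDH-low clones), with 1865 CPM in wild type; the groups overlapped and the difference was -0.32 (SE 0.183, adjusted p = 0.374).

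By role in the ribosome, no set held a member that passed the test. RPL5 and RPL11, which carry the 5S ribosomal RNA, had higher means in ALDH-high clones. RPL5 had 1415, 1086 and 1103 CPM (ALDH-high clones) against 1086, 900.1 and 882 CPM (ALDH-low clones), with 1526 CPM in wild type, the clone groups lying apart by under 1 CPM (1086.43 CPM in ALDH-high clone 6 and 1085.68 CPM in ALDH-low clone 1), and a difference of 0.33 (SE 0.173, adjusted p = 0.345), which was -0.07 with neighbours subtracted. RPL11 had 1760.4, 1313 and 1462 CPM (ALDH-high clones) against 1352, 1121 and 1475 CPM (ALDH-low clones), with 2082 CPM in wild type, with overlap, and a difference of 0.20 (SE 0.183, adjusted p = 0.592).

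The stalk of the large subunit, which recruits elongation factors, is made of RPLP0, RPLP1 and RPLP2 on a base that includes RPL12. RPLP0 differed by 0.25, RPLP1 by -0.01, RPLP2 by 0.03 and RPL12 by 0.05, and all 4 groups of values overlapped. RPLP1 had 7633, 5241 and 5765 CPM (ALDH-high clones) against 6051, 7199 and 5351 CPM (ALDH-low clones), with 10331 CPM in wild type. RPLP0 had 527, 319 and 343 CPM (ALDH-high clones) against 372, 271 and 339 CPM (ALDH-low clones), with 484 CPM in wild type. ALDH-high clone 1 and wild type were the highest libraries in both.

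Around the exit of the peptide tunnel, 7 members (RPL17, RPL19, RPL23A, RPL26, RPL31, RPL35 and RPL39) had differences of -0.32 to 0.38, 4 positive and 3 negative, with a median of 0.12. The list drawn up for the decoding site and the mRNA entry held RPS2, RPS3, RPS9, RPS12, RPS15 and RPS23. RPS12, which differed by -0.07, does not lie at either site. These 6 had a median of -0.01, with RPS3 alone past 0.25. FAU, which encodes a ribosomal protein fused to a ubiquitin-like protein, differed by -0.30, but by 0.15 with neighbours subtracted, and RPS27A, fused to ubiquitin, differed by -0.01. FAU, which the symbol rule does not take, had 859.8, 949 and 792 CPM (ALDH-high clones) against 1068, 999 and 1139 CPM (ALDH-low clones), with 972 CPM in wild type, without overlap (adjusted p = 0.304 by limma). Of the 18 members known from Diamond-Blackfan anaemia, 14 were higher and 4 lower in ALDH-high clones, with a median of 0.07, beside 0.07 over all members, and 0 of 18 passed.

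Several ribosomal proteins have a second gene for a close copy, a paralog. RPL26L1, the paralog of RPL26, had 81.0, 90.9 and 66.6 CPM (ALDH-high clones) against 32.0, 60.0 and 23.8 CPM (ALDH-low clones), with 46.2 CPM in wild type. All ALDH-high clones were above all ALDH-low clones, and the difference of 1.12 (SE 0.312, adjusted p = 0.114) was larger than that of any member of the family proper. It passed with library weights (adjusted p = 0.0453) and without ALDH-low clone 3 (1.48, adjusted p = 0.0296), both by limma. RPL26 itself had 952, 804 and 807 CPM (ALDH-high clones) against 516, 650.1 and 835 CPM (ALDH-low clones), with 881 CPM in wild type, and its 2 rows differed by 0.38 each.

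RPL22L1, the paralog of RPL22, had 265, 170.4 and 195 CPM (ALDH-high clones) against 177, 384 and 171 CPM (ALDH-low clones), with 325 CPM in wild type, so ALDH-low clone 3 and wild type were high. RPL22 had 1238, 864 and 1026 CPM (ALDH-high clones) against 1146, 754 and 984 CPM (ALDH-low clones), with 1538 CPM in wild type, with ALDH-low clone 3 the lowest library. The order of the clones thus ran opposite in this pair for ALDH-low clone 3, where RPL22L1 was highest and RPL22 lowest.

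RPL7L1 had 107, 99.9 and 105 CPM (ALDH-high clones) against 88.1, 110.2 and 109.7 CPM (ALDH-low clones), with 71.5 CPM in wild type, a difference of 0.03, beside 0.12 for RPL7. RPL36AL had 649, 660.0 and 719.7 CPM (ALDH-high clones) against 741, 808 and 599 CPM (ALDH-low clones), with 850.2 CPM in wild type, a difference of -0.07, beside 0.07 for RPL36A. Both differences were within the spread between clones. RPS27, the partner of RPS27L, differed by -0.01, and of the pairs of RPL3, RPL10, RPL39 and RPS4X the second gene was not analysed here.

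The rows with the highest mean CPM, which is not a ranking of levels per length, were RPS21, RPLP1, RPS20, RPS14, RPS23 and RPL10, and their differences were within the spread between clones. RPS21 had 6512, 5689 and 6105 CPM (ALDH-high clones) against 8004, 6713 and 5107 CPM (ALDH-low clones), with 9088 CPM in wild type. RPS20 had 6323, 4539 and 5194 CPM (ALDH-high clones) against 4640.1, 4519 and 4353 CPM (ALDH-low clones), with 6889 CPM in wild type. RPS23, at the decoding centre, had 4568, 3346 and 3439 CPM (ALDH-high clones) against 3687, 4158 and 3502 CPM (ALDH-low clones), with 5255 CPM in wild type. Wild type was the highest library in all 3. RPS14 differed by 0.09, RPS23 by -0.01 and RPL10 by -0.06.

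Single clones departed from all other libraries in a few members. RPS6, the small subunit protein that S6 kinases phosphorylate after growth signals, had 2812, 485 and 558 CPM (ALDH-high clones) against 438, 1969 and 608 CPM (ALDH-low clones), with 459 CPM in wild type. It was several times higher in ALDH-high clone 1 and ALDH-low clone 3 than in the other 5 libraries, which gave the widest standard error of the family (0.749) around a difference of 0.18. Without ALDH-high clone 1 the difference was -0.63. RPL31 had 2918, 1270.0 and 2174 CPM (ALDH-high clones) against 2269, 2498 and 2025 CPM (ALDH-low clones), with 3952 CPM in wild type, and RPS12 3135, 1648 and 2209 CPM (ALDH-high clones) against 2435, 2476 and 2208 CPM (ALDH-low clones), with 3818 CPM in wild type, so ALDH-high clone 6 was the lowest library in both.

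RPS29 had 1220.4, 851 and 1037 CPM (ALDH-high clones) against 1207, 977 and 597 CPM (ALDH-low clones), with 1279 CPM in wild type, and RPL37 1089, 785 and 807 CPM (ALDH-high clones) against 912, 909.9 and 579 CPM (ALDH-low clones), with 989 CPM in wild type, with ALDH-low clone 8 the lowest in both. RPL17 had 1322, 932 and 925 CPM (ALDH-high clones) against 989, 728 and 916 CPM (ALDH-low clones), with 1421 CPM in wild type, lowest in ALDH-low clone 3. RPS2, at the mRNA entry, had 383, 293 and 425 CPM (ALDH-high clones) against 556, 270.4 and 394 CPM (ALDH-low clones), with 391 CPM in wild type, highest in ALDH-low clone 1. SNORA10 and SNORA64, which overlap RPS2 on the same strand, each had 193 CPM in that clone, against 42.1 to 115 CPM elsewhere. Pseudogene rows, described below, held 90.9% of the combined CPM of RPS2. With them added, wild type was highest, at 5350 CPM against 5023 CPM in ALDH-low clone 1. The members in these paragraphs were picked clone by clone, as those farthest from all other libraries. Departures in clones of both groups thus follow from the choice, and their relation to the sort was not tested.

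Wild type, set beside the clones without a test, was above all 6 clones in 43 of the 79 rows (54.4%), against 22.6% of all genes tested, and below all 6 in 5 rows (6.33%), against 25.4%. The median distance from the clone mean up to wild type was 0.38 over small subunit rows (wild type above in 20 of 32) and 0.33 over large subunit rows (23 of 47). Past the range of the clones, RPL28, RPL12, RPS3 and RPL3 lay farthest above. RPL28 had 2245, 2025 and 1959 CPM (ALDH-high clones) against 2209.6, 1910.4 and 2047 CPM (ALDH-low clones), with 3478 CPM in wild type. RPL3, near the peptidyl transferase centre, had 1928, 1511 and 1305 CPM (ALDH-high clones) against 1404, 1472 and 1539.6 CPM (ALDH-low clones), with 2759.8 CPM in wild type. RPL12 had 691, 639 and 518 CPM (ALDH-high clones) against 655, 557 and 561 CPM (ALDH-low clones), with 1042 CPM in wild type. In each, wild type stood above every clone, 1.68-fold above the clone mean in RPL28, 1.81-fold in RPL3 and 1.73-fold in RPL12.

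The members below all clones in wild type were led by RPL27A, which had 170.4, 169.6 and 173 CPM (ALDH-high clones) against 144, 168 and 184 CPM (ALDH-low clones), with 109 CPM in wild type. RPL24 had 67.9, 58.7 and 72.4 CPM (ALDH-high clones) against 72.1, 58.4 and 74.6 CPM (ALDH-low clones), with 54.6 CPM in wild type. RPL13 was 322 CPM in wild type, just below the 325 CPM of ALDH-high clone 10. Apart from RPL27A, these gaps were small beside the spread between clones. For RPL24 and RPL13, most of the combined CPM was in pseudogene rows, described below (89.0 and 73.6%). With those rows added, wild type was above all clones in both. RPL24 then had 891 CPM in wild type against 441 to 720 CPM over the clones. RPL13 had 1788 CPM against 1033 to 1493 CPM.

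Many members have processed pseudogenes, intronless copies of their messenger RNA whose reads are hard to tell from the gene's own, and the table lists 81 such rows. For 14 members the pseudogene rows held more than 50% of the combined CPM of member and pseudogenes. In RPL4, RPS18, RPL39 and RPS2 the share was 93.4, 93.3, 92.1 and 90.9%, so little of the combined CPM is listed under the member. RPL14 had 84.9% in RPL14P1, at 976, 1156 and 1166 CPM (ALDH-high clones) against 781, 782 and 818 CPM (ALDH-low clones), with 831 CPM in wild type. The pseudogene row thus showed the same order of groups as RPL14 itself, and the sum of both differed by 0.50 (SE 0.146, adjusted p = 0.123 by limma).

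The rows of RPL9 pseudogenes had 723, 244 and 1.52 CPM (ALDH-high clones) against 1.24, 595 and 346 CPM (ALDH-low clones), with 3.12 CPM in wild type, a range that separates libraries of the same group, and with them RPL9 differed by 0.30 (SE 0.635). RPLP0 differed by 0.01 with RPLP0P6 added. With all such rows added to their members, 0 of 79 passed, 7 had an unadjusted p under 0.05, and the summed level was 166131, 121883 and 125419 CPM (ALDH-high clones) against 134474, 133834 and 121013 CPM (ALDH-low clones), with 190210 CPM in wild type. The order of ALDH-high clone 1 and wild type above the rest was kept. The sources used here do not say how reads were divided between a gene and its copies.

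**Figure D5:**
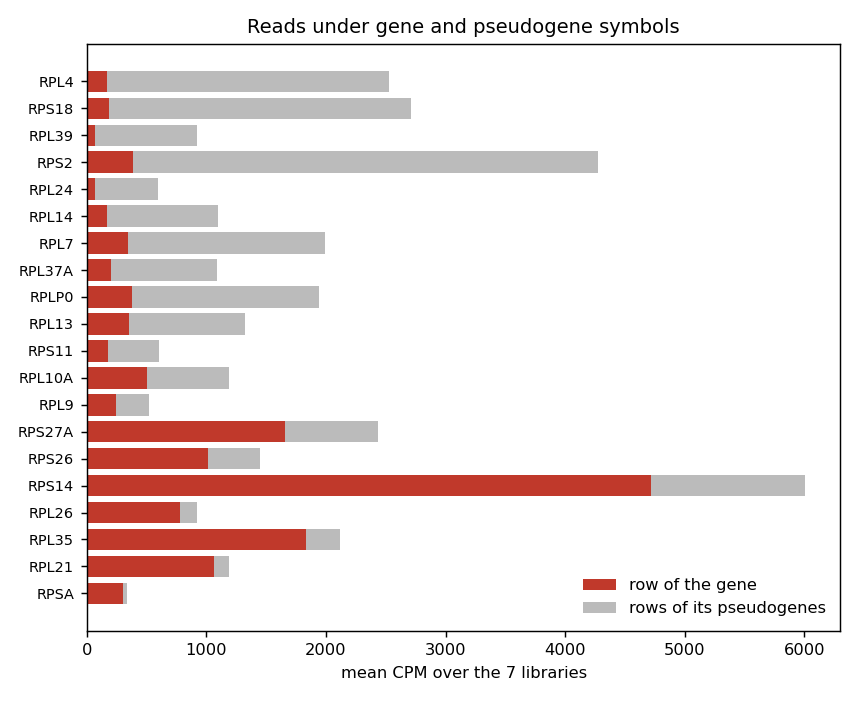
Bars are mean CPM over the 7 libraries for 20 ribosomal protein genes with more than 10% of their combined level in pseudogene rows; red is the row of the gene and grey the rows of its pseudogenes. The grey part makes up 93.4% in RPL4 and 10.6% in RPSA.

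Other rows also overlap members. RPL23, RPS10 and RPS12 have the same 7 values as another row (SNORA21, RP1-187N21.4 and SNORD101). RPL3, RPL17, RPL13, RPL23A, RPS20 and RPL36A have nearly the same values as a snoRNA or readthrough gene within or over them (SNORD43 for RPL3). Without a statement of how strand and overlap were counted, the level of these members and of the RNA inside them cannot be told apart.

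The genes that work with ribosomal proteins were counted from lists taken from textbook knowledge. Of 25 tested rows of other TOP messenger RNAs (translation factors and the like), 14 were higher and 11 lower in ALDH-high clones with a median of 0.20, and 0 passed the test. NAP1L1, a histone chaperone with a TOP start, had 639, 548 and 691 CPM (ALDH-high clones) against 438, 374 and 431 CPM (ALDH-low clones), with 595 CPM in wild type, a difference of 0.59 (SE 0.151, adjusted p = 0.0995). EEF1B2, an exchange factor for elongation factor eEF1A, differed by -0.35, and IPO5, an importin that carries ribosomal proteins to the nucleus, by -0.45.

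The 10 host genes of small nucleolar RNAs with a TOP start had 9 higher and 1 lower in ALDH-high clones and a median of 0.59, and 7 of 10 had an unadjusted p under 0.05 (19.7% of all genes), but 0 passed after adjustment. SNHG8 had 361, 255 and 258 CPM (ALDH-high clones) against 134, 244 and 129 CPM (ALDH-low clones), with 489.8 CPM in wild type, a difference of 0.83 (SE 0.266, adjusted p = 0.151). SNHG6 had 657, 478 and 542 CPM (ALDH-high clones) against 325, 423 and 317 CPM (ALDH-low clones), with 839 CPM in wild type, and EPB41L4A-AS1 81.0, 59.5 and 53.8 CPM (ALDH-high clones) against 35.5, 46.5 and 36.3 CPM (ALDH-low clones), with 106 CPM in wild type. ALDH-high clones were above ALDH-low clones in all 3, and wild type was above every clone. These 3 were picked for the smallest p, so their separation partly reflects the choice. Over the list, 6 of 10 were higher in ALDH-high clones without overlap and 0 lower (14.0 and 12.1% of all genes). Wild type was above all clones in 5 of 10 and below all in 1 (22.6 and 25.4% of all genes). SNHG16 was the one host gene lower in ALDH-high clones (-0.18).

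Ribosome assembly factors numbered 64, of which 49 were higher and 15 lower in ALDH-high clones, with a median of 0.18 and 0 passing. RRP9, a box C/D particle protein needed for processing of the small subunit RNA, had 78.3, 90.0 and 90.0 CPM (ALDH-high clones) against 35.6, 49.1 and 51.4 CPM (ALDH-low clones), with 30.01 CPM in wild type, a difference of 0.92 (SE 0.176, adjusted p = 0.0519). It lies on chromosome 3, and it passed with median-ratio scaling (adjusted p = 0.0474), quantile normalization (0.0411), library weights (0.0175) and robust estimation (0.0498), while with neighbours subtracted it differed by 0.54 (adjusted p = 0.259). NOP56, a core protein of the same particles, differed by 0.66 (SE 0.151, adjusted p = 0.0801) and passed with library weights (adjusted p = 0.0224). With neighbours subtracted NOP56 differed by 0.95, just short of the threshold (adjusted p = 0.05001 by limma). NHP2, of the box H/ACA particles, differed by 0.48 (SE 0.139, adjusted p = 0.124). Wild type ran the other way from the ribosomal protein genes here: it was below all clones in 39 of the 64 (25.4% of all genes tested) and above all in 2 (22.6% of all genes tested), with a median deviation of -0.53, against 0.38 for the 78 ribosomal protein genes.

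The 32 initiation and elongation factors had a median of 0.05 (21 higher, 11 lower) and the 25 tested regulators, among them genes of the mTOR, MYC and LARP families, a median of 0.00 (13 higher, 12 lower), with 0 passing in each. EIF2B3, a subunit of the initiation exchange factor, differed by 0.40, EIF5 by 0.34 and EIF2S1 by 0.35. Among regulators, LARP4 differed by 0.44 and RHEB, the GTPase that switches mTOR on, by -0.88, with RHEB at 39.7, 44.7 and 137 CPM (ALDH-high clones) against 62.8, 213 and 115 CPM (ALDH-low clones), with 111 CPM in wild type. RHEB varied as much within each group as between them.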

How the data were processed

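The deposited table gives CPM per gene, scaled by library size by the authors and rounded to 2 decimals. Per the submitters' processing notes, the aligner BWA (0.5.9) was used with hg19 and mm9, in unstated roles. The read assignment and library protocol are not given in the sources used here. Column names mention CAGEr, a package for cap-end tag data. In the table, the highest value of a listed gene is never under 0.52 CPM, which implies an earlier filter, and 1017 rows have the same 7 values as another row. Of the values under 20 CPM, 99.8% in wild type and 100% in each clone lay within 0.0051 CPM of a whole multiple of a step of 0.0393 to 0.0410 CPM. Rounding left whole reads uncertain, with 78.4 to 100% of these values within 0.1 of a step, and count tests were not run.

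The members, the gene lists and the tests were chosen with earlier results of these data known. The 12705 genes that reached 1 CPM in 3 or more clones were tested, ALDH-high against ALDH-low, as log2(CPM + 1) in limma (3.58.1, under R 4.3.3, eBayes with trend, two-sided, Benjamini-Hochberg threshold 0.05), wild type left out. In simulated data limma found 36% of 2-fold and 85% of 4-fold changes, with 6 false calls. Gene order and gaps came from GENCODE release 29, which matched 96.6% of rows; its coordinates are not printed. CTTT was searched in RefSeq windows from 250 bases before to 50 after a start.

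Named were the 8 members with the smallest p, the largest differences without overlap (5 in each direction), the 6 of highest CPM and any under 10 CPM, paralog pairs, 5S particle and stalk members, 4 members in each direction farthest outside the clones in wild type, 2 per clone farthest from other libraries, and 3 genes per list with the smallest p. RPSA, RPS25, RPL35A, RPS18, RPL4, FAU, RPS9, RPS27A, SNHG16 and LACTB were chosen after their values were seen. Some genes that these rules name are not reported here, though counts over the members include them. Settings tried beside these were pseudocounts 0.1 and 5, a filter of 5 CPM or none, quantile normalization, median-ratio scaling, robust eBayes or eBayes with no trend, library weights, all 7 libraries, 1 gene per identical set, a covariate for the shared scaling size, neighbours subtracted and each clone left out. Adding pseudogene rows to members was chosen after seeing the data.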

Additional observations from a re-analysis of the deposited data

How the results depend on the processing

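No paired analysis was possible because the groups share only the clone number 1, which numbers clones and pairs nothing. The count of 0 called ribosomal protein genes held in each alternative except library weights, which called 3, with 0 to 0 over the fits without 1 clone. Over all genes tested, 170 calls became 86 with the filter at 5 CPM, 73 with the scaling covariate, 108 with neighbours subtracted, 700 with library weights and 34 to 173 without 1 clone (34 without ALDH-high clone 10, 37 without ALDH-low clone 8, 44 without ALDH-low clone 1, 57 without ALDH-high clone 6). The comparison lists, with 0 calls, had 1 with median-ratio scaling, 1 with quantile normalization, 1 with robust estimation and 5 with library weights. The median difference of the members was 0.01 to 0.12 in the other alternatives, -0.02 with library weights and -0.05 to 0.16 without 1 clone. The ratio of summed levels was 1.01 to 1.06 under other scalings and with pseudogenes, and 0.957 to 1.14 without 1 clone. Of 64 named genes, 35 kept the sign of their difference in every alternative and 29 changed it in at least 1, in 78 of 1279 values; of the members with an unadjusted p under 0.05, 0 did. With median-ratio scaling the reversed difference was RPL28 -0.00046. With quantile normalization the reversed differences were RPS21 0.13, RPLP1 0.20, RPLP2 -0.16, RPL3 -0.094, RPL28 -0.15 and RPL35A -0.058. With library weights the reversed differences were RPS14 -0.045, RPLP2 -0.022, RPL12 -0.048, RPL3 -0.046, RPL28 -0.044, RPS6 -0.19, RPL35A -0.038 and RPS18 -0.070. With the scaling covariate the reversed differences were RPL24 0.046, RPS6 -0.32 and RPS2 0.084. With neighbours subtracted the reversed differences were RPL10 0.041, RPS23 0.10, RPS21 0.11, RPLP1 0.28, RPL22 -0.025, RPL5 -0.066, RPLP2 -0.018, RPL28 -0.19, RPL31 0.18, RPS12 0.16, IPO5 0.24, FAU 0.15 and RPL4 0.079. With pseudogene rows added the reversed differences were RPL24 0.10 and RPL13 0.011. Over the fits without 1 clone, the ranges that cross 0 were RPS14 -0.091 to 0.22, RPL22 -0.042 to 0.26, RPLP2 -0.061 to 0.11, RPL12 -0.035 to 0.17, RPL3 -0.067 to 0.21, RPL28 -0.043 to 0.068, RPS6 -0.63 to 0.82, RPL35A -0.11 to 0.20, RPS18 -0.13 to 0.15, RPL10 -0.25 to 0.042, RPS23 -0.15 to 0.071, RPLP1 -0.16 to 0.11, RPL22L1 -0.34 to 0.24, RPS27 -0.17 to 0.11, RPL24 -0.15 to 0.044, RPL31 -0.44 to 0.16, RPS12 -0.31 to 0.15, RPS2 -0.37 to 0.15, RPS21 -0.27 to 0.057, RPL7L1 -0.079 to 0.080, RPL27A -0.039 to 0.14, RPL36AL -0.20 to 0.020, RPL13 -0.15 to 0.012, RPS29 -0.083 to 0.42 and RPL37 -0.044 to 0.28. The causes were not tested. In simulated data 36% of 2-fold changes were called, and read depth is known only through the CPM step.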
